A study of Homo sapiens with 2 samples.

Results

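The genes described here are 46 genes that carry a cell through mitosis: cyclins and their kinase, mitotic kinases, the chromosomal passenger complex, the spindle checkpoint, kinesins, kinetochore and spindle proteins, condensin, and the transcription factor FOXM1. They were chosen by a list of gene symbols, and every probe set that the platform annotation assigns to 1 of them alone was taken, 91 of the 54613 probe sets on the array. RNA was measured on an Affymetrix array in 2 samples that the labels call HL60, a line from a human acute myeloid leukaemia. The cells were grown in RPMI with 10% serum. One sample had received eltrombopag at 3 µg/ml for 36 h; this small molecule activates the thrombopoietin receptor and binds iron. The other was untreated, with no vehicle or culture time in its label. With 1 sample in each group there is no replicate check and no test, and what the drug did cannot be told apart from anything else that set the 2 cultures apart.

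Entry into mitosis depends on CDK1 bound to cyclin A or B, and exit depends on the anaphase-promoting complex, which with CDC20 destroys cyclin B and securin once every kinetochore is attached. Most mitotic genes are transcribed late in the cell cycle, in G2 and M. The MuvB complex binds CHR elements in their promoters and, together with the factors B-MYB and FOXM1, activates them, while in resting cells MuvB joins E2F4 and a retinoblastoma relative to repress them. Genes of DNA replication peak earlier, under E2F factors. In a bulk sample, fewer cells in G2 and M and less RNA per cell cannot be told apart.

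Promoter sequence was examined first, because it is a property of the members that does not depend on either sample. RefSeq promoters of assembly GRCh38.p14, 250 bases before the gene's start and 50 after it, were matched by symbol for 40 of the 46 members; AURKA, BIRC5, BUB3, FOXM1, TPX2 and TTK were not matched. The CHR element was searched as TTTGAA, the NF-Y box as CCAAT, and E2F-type sites as GGCGGGAA, TTTGGCGC and TTTCGCGC, each on both strands. A gene with several listed starts was counted once if any of them held a match. A CHR variant, TTCGAA, was searched as well and is not counted as a CHR match here. The 2 last E2F-type motifs can overlap on opposite strands. The 120 bases before the start are printed for members with a CHR match there, taken from the lower, middle and higher end of the expression ratios, and for CCNB1, which has none. Capitals mark CHR and CCAAT matches, read as TTCAAA and ATTGG where they lie on the other strand.
KIF11, chr10:92593010-92593129, plus strand: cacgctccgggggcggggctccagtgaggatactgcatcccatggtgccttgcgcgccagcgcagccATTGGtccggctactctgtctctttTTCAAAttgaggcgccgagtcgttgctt
CCNB2, chr15:59105026-59105145, plus strand: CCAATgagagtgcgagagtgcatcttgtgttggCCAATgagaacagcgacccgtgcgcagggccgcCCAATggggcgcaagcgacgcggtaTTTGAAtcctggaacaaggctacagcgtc
PLK1, chr16:23678769-23678888, plus strand: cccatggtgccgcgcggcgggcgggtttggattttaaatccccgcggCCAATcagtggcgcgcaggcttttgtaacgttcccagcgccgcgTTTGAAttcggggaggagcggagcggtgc
ESPL1, chr12:53268179-53268298, plus strand: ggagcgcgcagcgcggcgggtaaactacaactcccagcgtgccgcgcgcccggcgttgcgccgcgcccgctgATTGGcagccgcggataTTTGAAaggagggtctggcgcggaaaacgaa
KIF18A, chr11:28108157-28108276, minus strand: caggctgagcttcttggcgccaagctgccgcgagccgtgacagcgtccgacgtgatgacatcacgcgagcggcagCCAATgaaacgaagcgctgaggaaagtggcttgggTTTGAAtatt
BUB1B, chr15:40160949-40161068, plus strand: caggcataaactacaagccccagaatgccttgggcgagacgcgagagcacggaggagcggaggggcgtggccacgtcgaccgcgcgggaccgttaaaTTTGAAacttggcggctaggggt
CCNB1, chr5:69167030-69167149, plus strand: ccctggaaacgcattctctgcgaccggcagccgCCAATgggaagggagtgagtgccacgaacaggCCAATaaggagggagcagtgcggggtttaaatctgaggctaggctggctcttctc

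A CHR match stood in the promoter of 29 of 40 members, or 72.5%, against 18.2% of 27305 genes in the promoter table and 15.8% of its 15843 protein-coding genes. In 6 separate lists of other mitotic genes, of which 90 were matched, the share was 44.4%. A match whose first base lay from 40 bases before to 20 bases after the start, a window set after the positions had been seen, was present in 55.0% of members, 24.4% of the other mitotic genes and 3.90% of all genes. In CCNB2 and PLK1 the CHR began 29 bases before the start, with a CCAAT box further upstream, and in ESPL1 it began 31 bases before. In KIF18A it began 10 bases before the start and in BUB1B 23 bases before. The CCAAT box was present in 77.5% of members, 62.2% of the other mitotic genes and 39.7% of all genes. CHR and CCAAT were found together in 22 members, or 55.0%, against 28.9% of the other mitotic genes and 7.26% of all genes. A match is a string of letters and does not show that a factor binds there.

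E2F-type motifs were less frequent, at 17.5% of members against 5.11% of all genes. The promoters of a list of 49 DNA replication genes, of which 43 were matched, had the other arrangement of shares. CHR was found in 4.65% of them and an E2F-type motif in 48.8%. The promoters of MCM6, a subunit of the replicative helicase, and of PCNA, the polymerase clamp, are shown as examples, with CHR, CCAAT and E2F-type matches in capitals. In MCM6 an E2F-type match on each strand runs together into 1 stretch.
MCM6, chr2:135876444-135876563, minus strand: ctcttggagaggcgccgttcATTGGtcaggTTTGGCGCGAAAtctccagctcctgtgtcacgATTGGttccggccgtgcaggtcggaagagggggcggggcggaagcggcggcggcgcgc
PCNA, chr20:5126623-5126742, minus strand: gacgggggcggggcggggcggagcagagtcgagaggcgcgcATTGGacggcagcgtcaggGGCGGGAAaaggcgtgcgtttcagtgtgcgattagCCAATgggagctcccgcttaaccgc

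**Figure D1:**
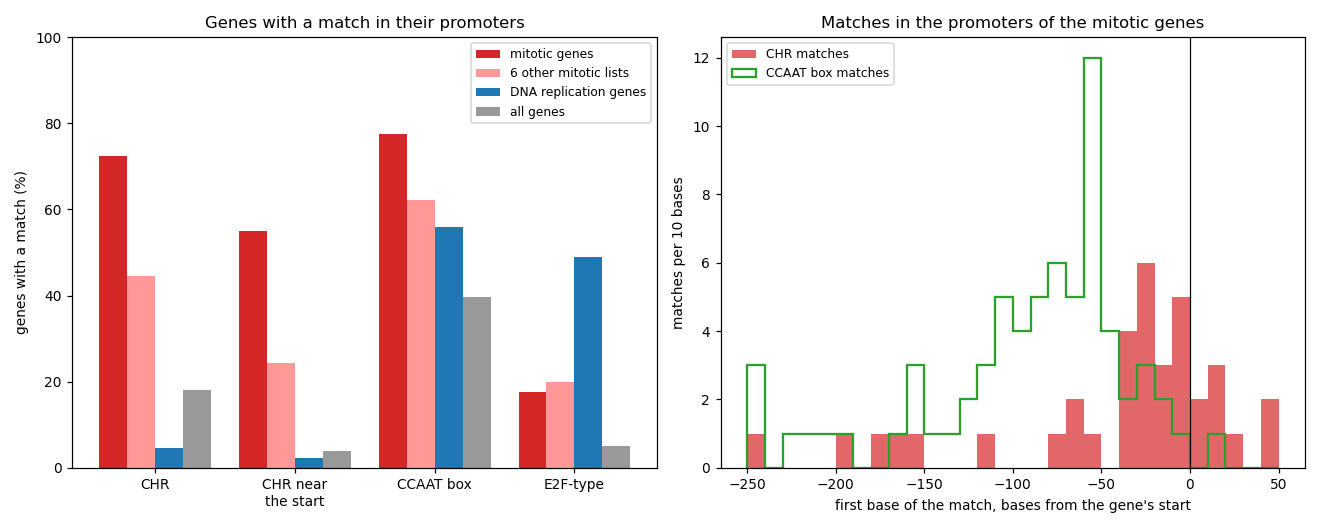
Left, the share of genes in percent whose promoters hold a CHR, a CHR near the start, a CCAAT box or an E2F-type motif, for the mitotic genes, 6 other mitotic lists, DNA replication genes and all genes. Right, the positions of the CHR and CCAAT matches in the mitotic promoters, in bases from the gene's start, counted per 10 bases; 72.5% of the mitotic genes and 18.2% of all genes have a CHR match.

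The deposited signals are linear MAS5 intensities, 1 for each probe set. Values under 56.9, the 60th percentile over both arrays, were raised to that floor. Where a gene had more than 1 probe set, its brightest stood for it. Signals of different genes come from different probes and were not compared with each other. Of the 46 members, 45 lay above the floor in both samples, and INCENP, the scaffold of the chromosomal passenger complex, lay below it in both, at 39.0 in the eltrombopag and 35.5 in the untreated sample. Of the 91 probe sets, 76 passed the floor in both, 1 in the untreated sample alone and 14 in neither.

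The marker lists gave the following picture of the samples. Of 10 promyelocyte genes on the array, 9 lay above the floor, 6 with a ratio below 0 and 3 above. Their median log2 ratio was -0.21 and their summed signal 9809 in the eltrombopag and 9348 in the untreated sample. CEBPA, a transcription factor of granulocyte precursors, was 2.93-fold lower, with 279 in the eltrombopag and 819 in the untreated sample. CTSG, cathepsin G, had a log2 ratio of -0.84 and MPO, myeloperoxidase, -0.08, while ELANE, neutrophil elastase, lay below the floor in both. Above 0 were MYB, a transcription factor of immature blood cells, at 0.43, AZU1 at 0.26 and SERPINB1 at 0.20. MYB was the largest part of the summed signal, with 5855 in the eltrombopag and 4349 in the untreated sample. That gap is larger than the gap between the sums. Of 15 plasma cell genes on the array, 13 lay above the floor in both samples, with a summed signal of 11663 in the eltrombopag and 19853 in the untreated sample; CD27 and FCRL5 lay below it. Their median log2 ratio was -1.08, with 12 below 0 and 1 above. At least 2-fold lower were 7, against 2.27% of all genes: IRF4, TNFRSF17, SLAMF7, FKBP11, POU2AF1, SDC1 and LAX1. A second SLAMF7 probe set gave -0.39, and the 2 other FKBP11 probe sets gave -2.17 and -0.69. DERL3 was the 1 above 0, at 0.63, with 287 in the eltrombopag and 185 in the untreated sample. Lymphocyte markers and fibroblast or epithelial markers were mostly below the floor, with 3 of 13 and 5 of 12 above it in at least 1 sample. Among these, PAX5, CD22 and CD3E had log2 ratios of -1.21, -0.28 and 0.06, and SPARC, KRT8 and COL1A2 had -1.08, -0.52 and -0.18; PAX5, CD3E and SPARC lay above the floor in 1 sample alone, so theirs are bounds. The part of these markers in the differences between mitotic genes was not tested.

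The mitotic genes were slightly lower in the eltrombopag sample, on the deposited scale and under all 3 other scalings tried, and spread on both sides of 0. Their median log2 ratio, eltrombopag over untreated, was -0.25, with quartiles of -0.38 and -0.08 and extremes of -0.79 and 0.61. Over all 10314 genes above the floor in at least 1 sample the median was -0.12. The difference between the medians was -0.13. The 2 brightest probe sets above the floor of a gene gave an SD of 0.26 per probe set over 4374 genes. It is the SD of their difference divided by the square root of 2. Over the 21 members with such a pair it was 0.37. The median size of the difference was 0.19 for these members and 0.21 for the 4374 genes. Of the 45 members, 37 had a ratio below 0 and 8 above; below 0 were 82.2% of members and 63.4% of all genes.

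Large differences were about as frequent among the members as over the array. None of the 45 was at least 2-fold lower, as 2.27% of all genes were, and none at least 2-fold higher, against 0.65%. At the smaller limit of 1.5-fold, 6 members were lower, or 13.3%, against 11.8% of all genes. The 6 were SMC2, KIF11, FOXM1, CCNB1, BIRC5 and NUSAP1. On the higher side 2 members, TTK and KIF18A, or 4.44%, passed 1.5-fold, against 3.49% of all genes. These shares lie near the background, so the counts past 1.5-fold are no result about the members as a group. Just inside the limit lay NUSAP1 and KIF18A, with log2 ratios of -0.64 and 0.59, and just outside it TPX2 and KIF20A, at -0.54 each.

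The count of lower members depended on the scale of the arrays. Median centring, quantile normalization and lowess moved the median of all genes to -0.02, -0.01 and -0.03, and each left 3 members at least 1.5-fold lower, FOXM1, KIF11 and SMC2, while TTK and KIF18A stayed at least 1.5-fold higher. The share of all genes at least 1.5-fold lower was then 8.10%, 7.53% and 7.92%. Under these scalings 32, 32 and 33 members had a ratio below 0, against 52.3%, 51.4% and 52.9% of all genes. CDK1, KIF14, CENPF, CENPN and NCAPG, all within 0.1 of 0 on the deposited scale, crossed to the higher side under at least 1 of them, and no other member changed sign under a scaling. The median of each of the 10 functional subgroups stayed below 0 under all 3.

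**Figure D2:**
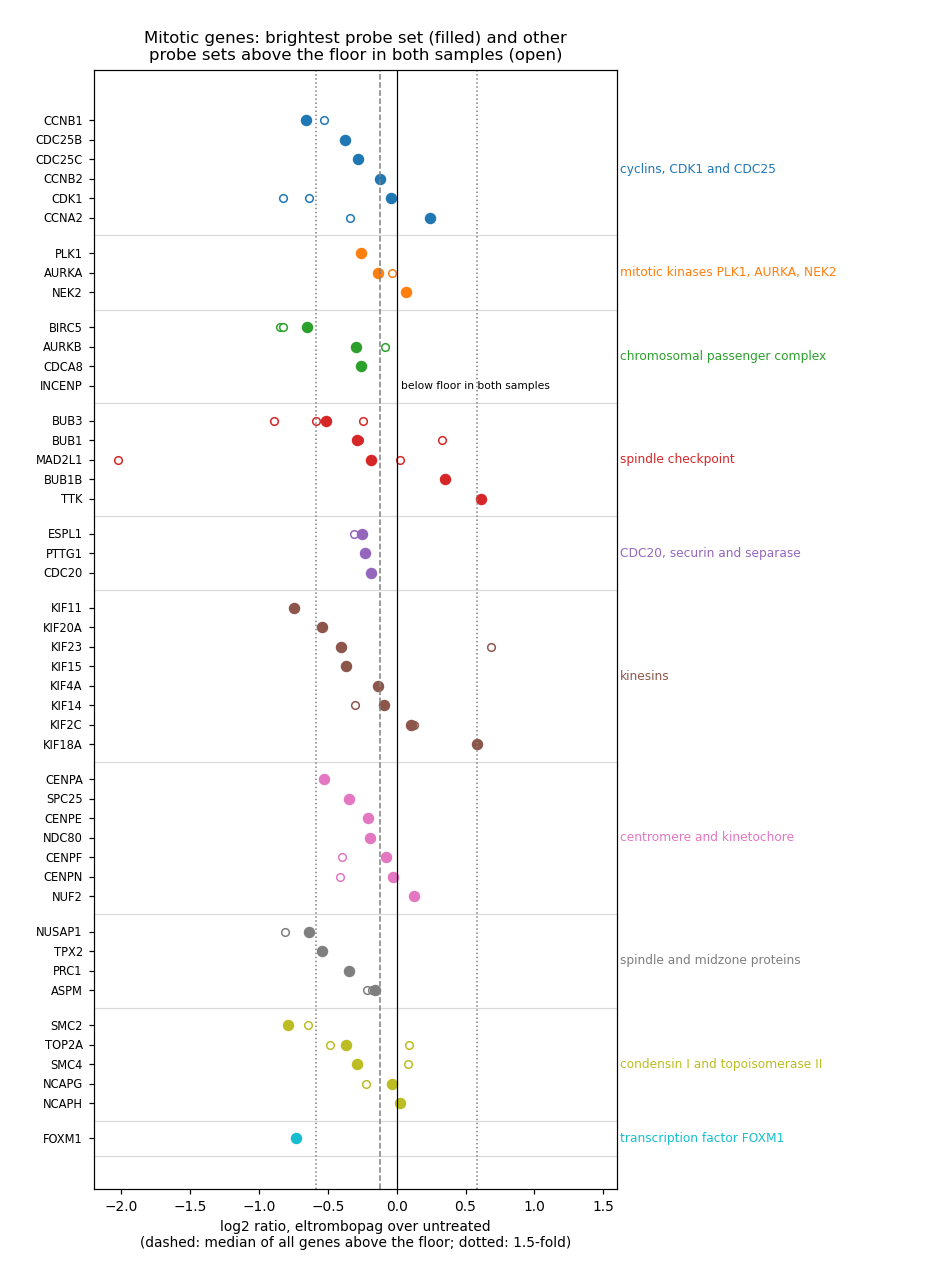
Log2 ratio of eltrombopag over untreated on the x axis for each mitotic gene, sorted within 10 functional subgroups, with the brightest probe set as a filled point and the others that passed the floor in both as open points. Most points lie between the dotted 1.5-fold lines; SMC2 at -0.79 and TTK at 0.61 are the extremes of the filled points, and 1 open point of MAD2L1 lies at -2.02.

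The cyclins, CDK1 and the CDC25 phosphatases had a median of -0.20 over 6 genes. CCNB1, cyclin B1, the partner of CDK1 at the entry into mitosis, had a signal of 339 in the eltrombopag and 536 in the untreated sample. The eltrombopag sample was thus 1.58-fold lower, and the second CCNB1 probe set was lower too, with a log2 ratio of -0.53. CCNB2, cyclin B2, had 975 in the eltrombopag and 1063 in the untreated sample, a log2 ratio of -0.12 that equals the median of all genes. CCNA2, cyclin A2, which also acts in S phase, had 1742 in the eltrombopag and 1469 in the untreated sample in its brightest probe set, a log2 ratio of 0.25, but -0.34 in its other. The direction of CCNA2 is therefore not settled by these probe sets.

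CDK1, the kinase that drives entry into mitosis, stood at 2481 in the eltrombopag and 2550 in the untreated sample in its brightest probe set, with a log2 ratio of -0.04. Its 2 other probe sets above the floor gave -0.63 and -0.82, so the size of its difference depends on the probe set. CDC25B and CDC25C, phosphatases that switch CDK1 on, had log2 ratios of -0.38 and -0.28.

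Among the mitotic kinases, PLK1, which acts from mitotic entry to cytokinesis, had 115 in the eltrombopag and 137 in the untreated sample, a log2 ratio of -0.26. AURKA, the kinase of the spindle poles, had log2 ratios of -0.14 and -0.03 in its 2 probe sets above the floor. NEK2, which separates the centrosomes, had 963 in the eltrombopag and 918 in the untreated sample, a log2 ratio of 0.07, while a dim probe set lay under the floor in the eltrombopag sample, at 43.8 against 89.7 in the untreated one. In their brightest probe sets the 3 kinases thus differed little between the samples. The dim NEK2 probe set gave -0.66 after the floor, past 1.5-fold, and this value is a bound.

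The chromosomal passenger complex corrects faulty attachments of chromosomes to the spindle. BIRC5, its subunit survivin, had 611 in the eltrombopag and 958 in the untreated sample and was 1.57-fold lower. All 3 BIRC5 probe sets above the floor were on the lower side, the other 2 with log2 ratios of -0.82 and -0.85, so this difference does not rest on 1 probe set. AURKB, the kinase of the complex, had a log2 ratio of -0.30 in its brightest and -0.08 in its other probe set, and CDCA8, borealin, had 448 in the eltrombopag and 535 in the untreated sample, a log2 ratio of -0.26. The subunits for which a level was measured were all on the lower side, under each scaling as well.

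The spindle checkpoint, which holds back anaphase until all chromosomes are attached, was split. TTK, the kinase MPS1 at the head of the checkpoint, had 1850 in the eltrombopag and 1212 in the untreated sample and was 1.53-fold higher. BUB1B, BUBR1, a component of the complex that inhibits CDC20, had 3115 in the eltrombopag and 2443 in the untreated sample, a log2 ratio of 0.35. Each of these rests on 1 probe set. BUB3, a partner of BUB1 and BUBR1, was on the other side, with 2279 in the eltrombopag and 3259 in the untreated sample. All 4 BUB3 probe sets above the floor were below 0, from -0.89 to -0.25.

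BUB1, a kinase of the kinetochore, had 512 in the eltrombopag and 624 in the untreated sample in its brightest probe set, a log2 ratio of -0.29. Its next probe set gave -0.27, and a dimmer one was on the other side of 0, at 0.33. MAD2L1, MAD2, the protein that captures CDC20, had 1818 in the eltrombopag and 2070 in the untreated sample in its brightest probe set, a log2 ratio of -0.19. A second MAD2L1 probe set gave 98.8 in the eltrombopag and 401 in the untreated sample, a log2 ratio of -2.02, and the remaining one gave 0.02. The probe set at -2.02 carries the suffix _a_at, which marks probes shared by alternative transcripts of 1 gene, and it was the only member probe set of 76 past 2-fold. Which transcript each probe set reads is not given in the sources used here.

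The genes that trigger anaphase lay close together. CDC20, the activator of the anaphase-promoting complex, had 1010 in the eltrombopag and 1147 in the untreated sample, a log2 ratio of -0.18. PTTG1, securin, had -0.23, and ESPL1, the protease separase that securin holds inactive, had 326 in the eltrombopag and 387 in the untreated sample, a log2 ratio of -0.25, with -0.31 in its second probe set. The PTTG1 probe set carries the suffix _x_at, which marks probes that can cross-hybridize to other sequences.

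The 8 kinesins ranged from -0.74 to 0.59, nearly the whole range of the members, with a median of -0.25. KIF11, the motor EG5 that pushes the spindle poles apart, had 435 in the eltrombopag and 728 in the untreated sample and was 1.67-fold lower. KIF18A, which dampens the movement of chromosomes at the metaphase plate, had 240 in the eltrombopag and 160 in the untreated sample, a log2 ratio of 0.59. Both rest on 1 probe set, and their promoters shown above both hold a CHR match and a CCAAT box. KIF20A, a motor of the central spindle, had 428 in the eltrombopag and 622 in the untreated sample, a log2 ratio of -0.54.

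KIF23, the motor subunit of centralspindlin in cytokinesis, had 247 in the eltrombopag and 327 in the untreated sample in its brightest probe set, a log2 ratio of -0.40. Its other probe set gave 323 in the eltrombopag and 201 in the untreated sample, a log2 ratio of 0.68, so its direction is not settled. KIF15, which backs up KIF11 in keeping the spindle bipolar, had -0.37. KIF4A, a motor on chromosome arms and the central spindle, had -0.14, and KIF14, a cytokinesis motor, -0.09. KIF2C, the microtubule depolymerase MCAK, had 0.10 and 0.13 in its 2 probe sets and was the only member with at least 2 probe sets above the floor that were all above 0. Kinesins that mainly carry cargo outside mitosis, from a separate list, had a median of -0.14 over 16 genes. At least 1.5-fold lower were 2 of them, or 12.5%, near the 11.8% of all genes. Farthest from 0 in that list were KIF13A at -1.31, KIF1B at -0.65 and KIF5A at 0.46.

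Centromere and kinetochore genes had a median of -0.19 over 7 genes, and none passed 1.5-fold. CENPA, the histone H3 variant that marks centromeres, was lowest, with 99.8 in the eltrombopag and 144 in the untreated sample, in a probe set of the suffix _x_at. NUF2, a subunit of the NDC80 complex that grips spindle microtubules, was highest, with 1153 in the eltrombopag and 1058 in the untreated sample. The NDC80 complex was uneven. NDC80 itself had a log2 ratio of -0.19, NUF2 0.12 and SPC25 -0.34, while their partner SPC24, which is not among the 46, had 132 in the eltrombopag and 373 in the untreated sample, 2.83-fold lower. CENPE, the kinetochore motor, had -0.21. CENPF, a kinetochore protein that is abundant in G2, had -0.08 and -0.40 in its 2 probe sets above the floor, and CENPN, which binds CENPA nucleosomes, had -0.03, -0.41 and -0.02.

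The spindle and midzone proteins had the lowest median of the subgroups with more than 1 gene, -0.44 over 4 genes. NUSAP1, which binds and bundles spindle microtubules, had 1615 in the eltrombopag and 2509 in the untreated sample and was 1.55-fold lower, and its second probe set gave -0.81. TPX2, the activator of AURKA on the spindle, had 288 in the eltrombopag and 419 in the untreated sample, a log2 ratio of -0.54. PRC1, which crosslinks microtubules of the central spindle, had -0.35. ASPM, a protein of the spindle poles, had 1615 in the eltrombopag and 1803 in the untreated sample, a log2 ratio of -0.16, with -0.21 and -0.18 in its other probe sets.

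Condensin I, the ring that compacts mitotic chromosomes, was uneven as well. SMC2, 1 of its 2 ATPase subunits, had 158 in the eltrombopag and 272 in the untreated sample and was 1.72-fold lower, and a second probe set gave -0.65. SMC4, the other ATPase subunit, had 2950 in the eltrombopag and 3605 in the untreated sample, a log2 ratio of -0.29, and its dimmest probe set above the floor gave 0.08. NCAPH, a subunit specific to condensin I, had 181 in the eltrombopag and 178 in the untreated sample, a log2 ratio of 0.03. NCAPG, likewise specific to condensin I, had -0.03, and -0.22 in its second probe set. TOP2A, topoisomerase II alpha, which untangles sister chromatids, had 1929 in the eltrombopag and 2491 in the untreated sample, a log2 ratio of -0.37, with -0.48 and 0.09 in its other probe sets.

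FOXM1, the transcription factor that activates many of the other genes, had 517 in the eltrombopag and 857 in the untreated sample and was 1.66-fold lower. It has 1 probe set, with the suffix _x_at. Other regulators of mitotic promoters, from a separate list of MuvB, E2F4 partner and NF-Y genes, had a median of -0.35 over 13 genes. Of these, 10 had a ratio below 0 and 3 above, where 63.4% of all genes were below 0. At least 1.5-fold lower were 4, or 30.8%, against 11.8% of all genes. None was as much higher, against 3.49% of all genes. TFDP1, the partner of E2F proteins, had 696 in the eltrombopag and 1358 in the untreated sample, a log2 ratio of -0.96, and its 2 other probe sets gave -1.36 and -1.01. RBL1, the retinoblastoma relative p107, had -0.88, and NFYA, an NF-Y subunit that recognises CCAAT, had -0.78 and, in another probe set, -0.29. MYBL2, B-MYB, named here for its role after its value was seen, had -0.57. The 3 above 0 were RBL2 at 0.26, LIN37 at 0.22 and E2F4 at 0.11.

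Members with a CHR match and members without one had similar ratios. The median log2 ratio was -0.22 over 28 members with the match and -0.23 over 11 without it, among members above the floor with a promoter in the table. The 11 include BUB1 and CDC25B, which hold the variant TTCGAA. That variant was found in 7.5% of members and 1.82% of all genes. The 28 ranged from -0.79 to 0.59, so genes with this element lay at both ends. The 7 members with an E2F-type motif had a median of -0.37, against -0.20 over the 32 without one; 2 of the 7, CDK1 and CENPN, lay just below 0 and crossed to the higher side under all 3 scalings. These are descriptions of small groups in 1 pair of arrays.

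**Figure D3:**
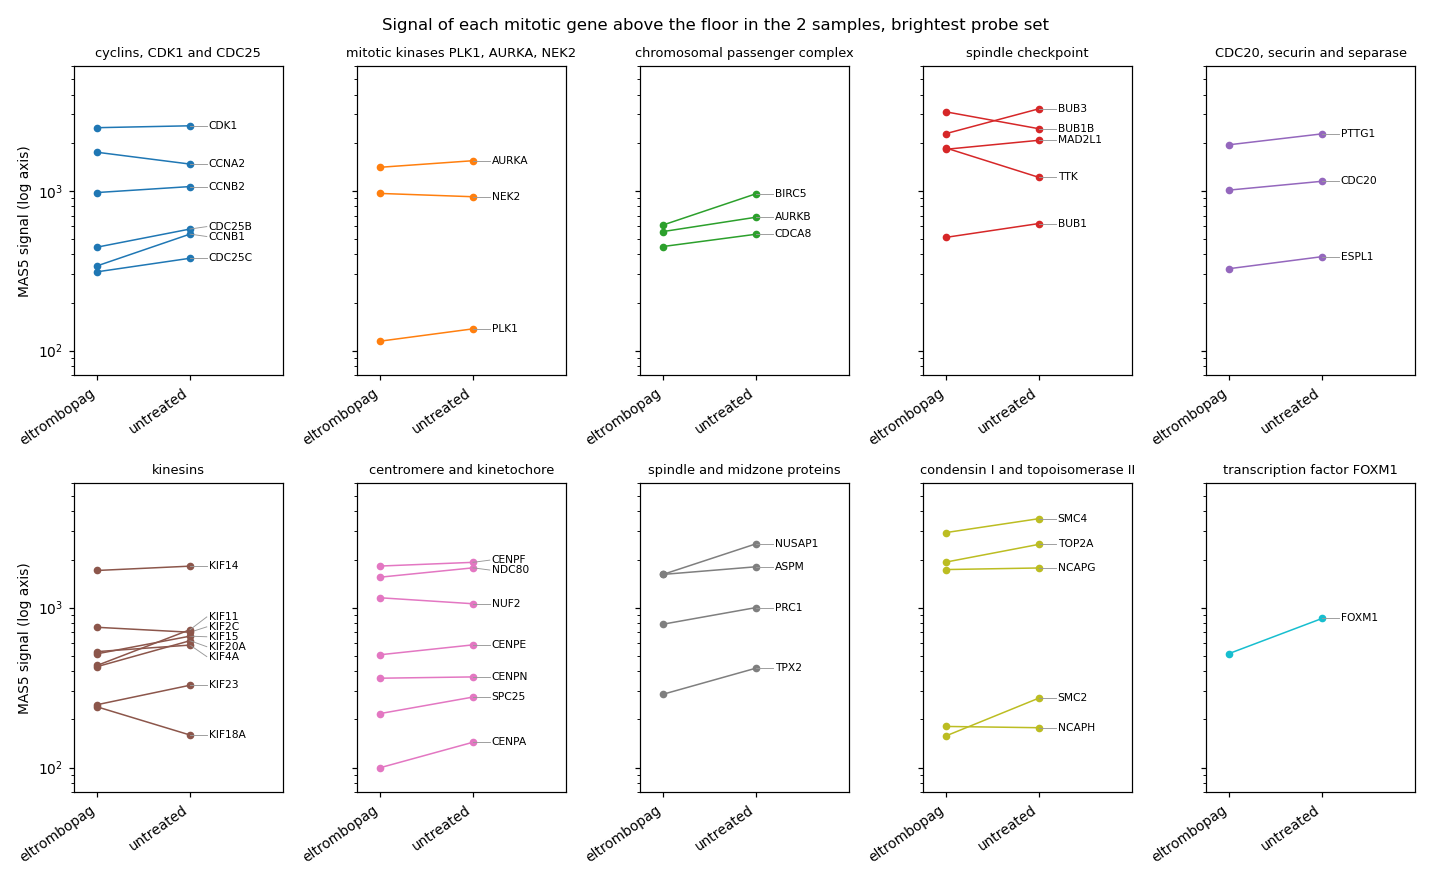
MAS5 signal on a log axis in the eltrombopag sample (left) and the untreated sample (right) for each mitotic gene above the floor, brightest probe set, in 1 panel per functional subgroup; each line is 1 gene, and levels of different genes are not comparable. Lines that climb to the right are lower with eltrombopag, as for KIF11 at 435 and 728, and the lines of TTK and KIF18A descend.

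Agreement between probe sets limited how far single genes could be read. Of the 45 members, 21 had at least 2 probe sets that passed the floor in both. In 14 of these all such probe sets were below 0, in 1 all were above 0, and in 6 they differed in sign: CCNA2, BUB1, MAD2L1, KIF23, SMC4 and TOP2A. Over the 76 probe sets, 62 were below 0, or 81.6%, against 62.4% of all named probe sets that passed the same floor. At least 1.5-fold lower were 14 probe sets, or 18.4%, against 12% of all named probe sets. On the higher side 3 passed this limit, or 3.95%, against 3.76%. Probe sets of 1 gene enter these counts separately and are not independent. BIRC5, CDK1, NUSAP1 and SMC2 each gave more than 1 of the 14. Counted by gene, 13.3% of members were at least 1.5-fold lower, against 11.8% of all genes. The other 24 members above the floor have 1 such probe set each, among them TTK, BUB1B, KIF11, KIF18A and FOXM1.

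Other genes of mitosis, from 6 separate lists, showed a few larger differences. Of 103 such genes above the floor, 85 had a ratio below 0 and 17 were at least 1.5-fold lower, or 16.5%; the median was -0.20. Of all genes 63.4% were below 0 and 11.8% at least 1.5-fold lower. Under median centring, quantile normalization and lowess the 17 became 10, 10 and 11. Past 2-fold were 5, all lower in the eltrombopag sample, where 2.27% of all genes were at least 2-fold lower. UBE2S, a ubiquitin-conjugating enzyme of the anaphase-promoting complex, had 234 in the eltrombopag and 649 in the untreated sample, 2.77-fold lower. CENPM and OIP5, centromere proteins, were 2.39-fold and 2.10-fold lower, and STMN1, stathmin, which destabilizes microtubules, was 2.10-fold lower; SPC24 was the fifth. Each of the 5 has 1 probe set above the floor. WEE1, the kinase that restrains CDK1, had 388 in the eltrombopag and 773 in the untreated sample, just short of 2-fold lower.

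The 6 lists were not alike. Centromere and kinetochore genes outside the 46 had a median of -0.29 over 27 genes. Below 0 were 25, where 63.4% of all genes were, and at least 1.5-fold lower were 7, or 25.9%, against 11.8%. Subunits and partners of the anaphase-promoting complex had a median of -0.03 over 17 genes, with 9 below 0; ANAPC11, its RING subunit, had -0.79 and CDC16 0.47. Cohesin genes had a median of -0.10 over 15 genes, with STAG1 at -0.66, CDCA5, sororin, at -0.55 and NIPBL, the cohesin loader, at 0.33. A second STAG1 probe set gave -0.20. The 4 remaining condensin subunits were all below 0, with NCAPG2 and NCAPH2 of condensin II at -0.68 and -0.28 and NCAPD2 of condensin I at -0.25. Regulators of mitotic entry had a median of -0.40 over 18 genes, with PBK at -0.76 and BORA, an activator of AURKA and PLK1, at 0.72. Spindle and cytokinesis genes had a median of -0.18 over 22 genes, with FAM83D at -0.65 and TUBG1, gamma-tubulin, at -0.56 next after STMN1.

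Genes of DNA replication differed more between the samples than the mitotic genes did. Of 49 above the floor in at least 1 sample, 23 were at least 1.5-fold lower, or 46.9%, against 11.8% of all genes, and the median log2 ratio was -0.48. Under median centring, quantile normalization and lowess the 23 became 14 in each case, or 28.6%, against 8.10%, 7.53% and 7.92% of all genes. Past 2-fold were 7, all lower: GINS2, WDHD1, PCNA, CHAF1B, RFC2, POLD3 and RPA3. Of all genes 2.27% were at least 2-fold lower. A second WDHD1 probe set gave -0.69, short of 2-fold, and a second RFC2 probe set gave -1.28. GINS2 passed the floor in the untreated sample alone, so its value is a bound; of the 47 that passed it on both arrays, as all 45 mitotic genes did, 22 were at least 1.5-fold lower, or 46.8%. The mitotic genes had 6 of 45 at least 1.5-fold lower, 0 at least 2-fold lower and a median of -0.25. PCNA had 1060 in the eltrombopag and 2455 in the untreated sample, 2.32-fold lower. The replication list kept the lower median under median centring, quantile normalization and lowess, at -0.38, -0.41 and -0.40, against -0.15, -0.12 and -0.13 for the mitotic genes. With 1 sample per group the difference between the lists has no test, and both were chosen with earlier results of these data known.

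**Figure D4:**
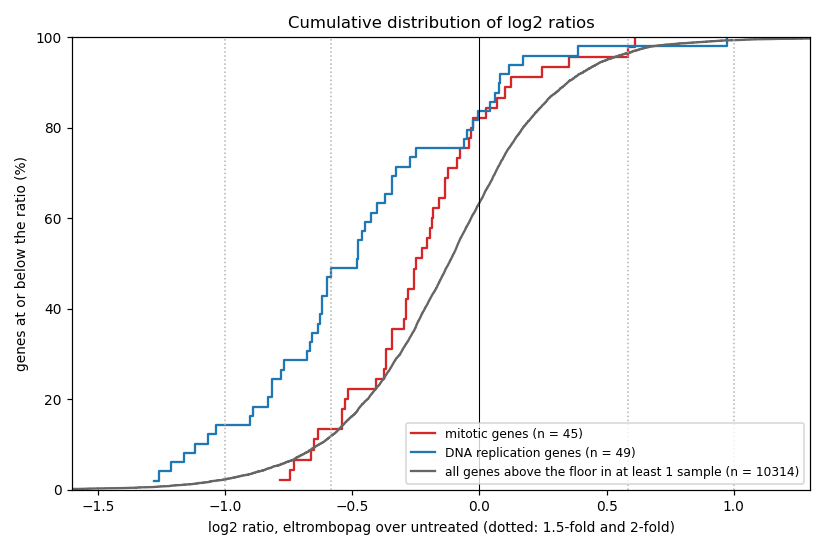
Cumulative share of genes, in percent, at or below each log2 ratio of eltrombopag over untreated, for 45 mitotic genes, 49 DNA replication genes and 10314 genes above the floor in at least 1 sample. The curve of the mitotic genes lies close to that of all genes below -0.4 and above it around -0.2, and the curve of the replication genes lies furthest to the left at ratios below -0.1, with 46.9% at or below the 1.5-fold limit.

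**Figure D5:**
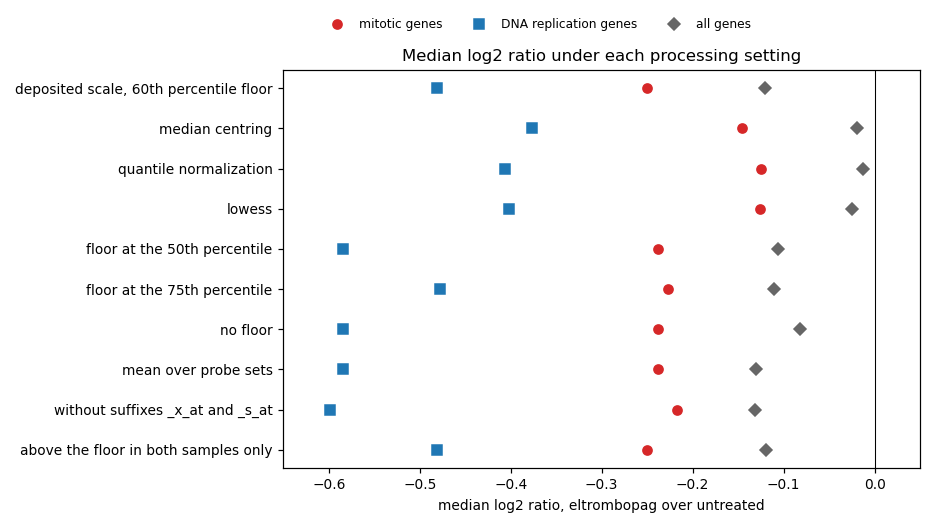
Median log2 ratio, eltrombopag over untreated, of the mitotic genes, DNA replication genes and all genes under the setting used here and 9 alternatives, 1 per row. In each row the mitotic genes lie between the replication genes and all genes, from -0.25 on the deposited scale to -0.12 after quantile normalization.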

How the data were processed

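RNA of 2 samples was extracted with Trizol and hybridized as biotinylated cRNA, per the labels' protocols. The authors deposited 1 signal intensity per probe set and sample; the submitters' processing notes name MAS5. Its version and scaling target were not given in the sources used here. Each array is summarised on its own. Dim probe sets are noisy, and having 1 array in each group limits the precision. The median intensity was 31.5 in the eltrombopag and 32.8 in the untreated sample.

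The platform annotation named 1 gene for 41091 probe sets and several for 1801, which were left unnamed; 11721 were not listed. Values were used as deposited, floored at 56.9 (60th percentile) and taken as log2; the probe set with the highest mean log2 signal stood for its gene. A gene was counted past 1.5-fold or 2-fold; no test was possible. All members may be named; the lowest, the highest, those past 1.5-fold and those with conflicting probe sets in each subgroup are given in full. Of other lists, genes past 2-fold and the 3 largest were taken. Named outside this rule were MYBL2, RBL2, LIN37, E2F4, MCM6, MPO, ELANE, AZU1, SERPINB1, DERL3, CD27, FCRL5, XBP1 and JCHAIN. The members and lists were chosen with earlier results of these data known. Promoters came from RefSeq, assembly GRCh38.p14.

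The alternatives were median centring, quantile normalization, lowess (span 0.3), floors at the 50th and 75th percentile or none (minimum 1), a mean of all probe sets of a gene, leaving out probe sets whose names end in _x_at or _s_at, and genes above the floor in both samples only. The counting and scaling steps were checked on simulated arrays. Python 3.11.15, numpy 2.4.6, pandas 2.3.3 and statsmodels 0.14.6 were used.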

Additional observations from a re-analysis of the deposited data

How the results depend on the processing

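No paired analysis was possible because each group holds 1 sample. The median log2 ratio of the mitotic genes kept its sign under all 9 alternatives, from -0.25 to -0.12. The count at least 1.5-fold lower, 6 on the deposited scale, was 3 under median centring, 3 under quantile normalization and 3 under lowess. With the floor at the 75th percentile, 1 member, TTK, was at least 1.5-fold higher in place of 2. When probe sets ending in _x_at or _s_at were left out, only 32 members could be measured; 24 of them had a ratio below 0 and 1, MAD2L1, was at least 2-fold lower, through the probe set at -2.02 described above. There the median of the chromosomal passenger complex was -0.57 and that of the spindle checkpoint turned to 0.032, since other probe sets and fewer genes entered. KIF23 turned to 0.14 with the mean over probe sets and to 0.68 without these suffixes, and with the mean CCNA2 and NEK2 turned to -0.05 and -0.29. Of 390 values of single members under the alternatives, 383 moved by less than the SD per probe set over all genes, 0.26. This count is no test of robustness. A change of floor left most members at the same value, and median centring moved all of them alike. The 7 larger moves, in CCNA2, CDK1, NEK2, MAD2L1 and KIF23, came from the alternatives that changed the probe sets used. No member past 1.5-fold changed sign. Low signals near the floor limit PLK1, CENPA and INCENP most.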

Other observations

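In both samples several genes typical of plasma cells were bright, which the label HL60 does not name. JCHAIN, the immunoglobulin J chain, had 4866 in the eltrombopag and 7972 in the untreated sample, and XBP1, a transcription factor of secretory cells, had 3268 in the eltrombopag and 3441 in the untreated sample. IRF4 had 131 in the eltrombopag and 677 in the untreated sample, a log2 ratio of -2.37, larger in size than that of any of the 45 mitotic genes in their brightest probe sets.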
